A study of Mus musculus with 8 samples.

Results

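The genes described here are 8 genes of cellular iron handling: the uptake genes *Tfrc* and *Slc11a2*, the exporter gene *Slc40a1*, the ferritin genes *Fth1* and *Ftl1*, the genes of the iron regulatory proteins *Aco1* and *Ireb2*, and the ferritin receptor gene *Ncoa4*. They were chosen by name among the 24059 gene symbols counted in each library, and all 8 were listed. *Tfrc* was included because it is a known target of Regnase-1 in other cells. Of the 8, 7 passed the filter on low counts and were tested together with the other genes (14934 in all), and *Slc40a1* did not pass. None of the 7 was called changed, nor was any other gene in the same edgeR fit (0% of 14934), and the interval of each gene's fold change is given with its values.

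The cells were bone marrow–derived mast cells (BMMCs), that is, mast cells grown in vitro with IL-3 for at least 4 wk from the marrow of C57BL/6 mice, which per the study's methods were 6 to 8 wk old. The scrambled RNP group (4 libraries, labelled *Zc3h12a* WT) received Cas9 with a non-targeting guide, and the *Zc3h12a* RNP group (4 libraries, labelled *Zc3h12a* KO) received Cas9 with guides against *Zc3h12a*, the gene of Regnase-1. Both groups thus carried Cas9 and a guide, were left unstimulated, and were lysed 1 wk after transfection. The *Zc3h12a* RNP libraries are pools of transfected cells rather than clones, so cells without an edit may be present, and same-numbered libraries were analysed as pairs. The cells came from 4 mice and were given either RNP per the series' design, but no label says which library came from which mouse.

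As background, iron bound to transferrin enters a cell through transferrin receptor 1, the product of *Tfrc*, is reduced in the endosome and leaves it through the transporter DMT1, the product of *Slc11a2*. Iron that is not used is stored in ferritin, a shell built of heavy chains (*Fth1*) and light chains (*Ftl1*), is released again when NCOA4 carries ferritin to the lysosome, and leaves the cell through ferroportin (*Slc40a1*). The iron regulatory proteins IRP1 (*Aco1*) and IRP2 (*Ireb2*) bind a hairpin called the iron-responsive element (IRE) when iron is scarce: at a 5′ UTR they block translation, and at the *Tfrc* 3′ UTR they protect the mRNA from decay. Regnase-1 is an endoribonuclease that cleaves mRNAs at hairpins whose loop is a pyrimidine, a purine and a pyrimidine, and *Tfrc*, *Egln1* and *Egln3* are among its known targets. Dividing cells need iron, among other things for the enzyme that makes the building blocks of DNA, and mast cells kept in IL-3 divide.

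The IRE hairpins are printed because they are the elements through which 5 of the 8 mRNAs are tied to the same pair of regulators. They were searched on the mRNA strand of the UTRs of coding transcripts (GENCODE M39, GRCm39) as an unpaired C, 5 paired bases with G-U pairs allowed, a loop of CAGTGN or CAGAGT, and the 5 bases that pair back. Each line gives 29 bases in DNA letters from 5′ to 3′, and the capitals mark the 6-base loop.
Tfrc 3′ UTR hairpin 1: atttatcagtgaCAGAGTtcactataaat
Tfrc 3′ UTR hairpin 2: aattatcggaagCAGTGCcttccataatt
Tfrc 3′ UTR hairpin 3: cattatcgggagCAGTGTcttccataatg
Tfrc 3′ UTR hairpin 4: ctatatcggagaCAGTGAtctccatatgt
Tfrc 3′ UTR hairpin 5: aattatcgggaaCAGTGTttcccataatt
Slc40a1 5′ UTR hairpin: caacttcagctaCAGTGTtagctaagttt
Fth1 5′ UTR hairpin: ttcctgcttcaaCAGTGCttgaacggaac
Ftl1 5′ UTR hairpin: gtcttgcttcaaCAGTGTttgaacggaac
The 5 hairpins of *Tfrc* lie in exon 19 on the plus strand, at chr16:32449978-32450006, chr16:32450037-32450065, chr16:32450416-32450444, chr16:32450481-32450509 and chr16:32450528-32450556. Those of *Slc40a1* (chr1:45964625-45964653, minus strand), *Fth1* (chr19:9960096-9960124, plus strand) and *Ftl1* (chr7:45109203-45109231, minus strand) lie in exon 1. A hairpin with the CAGTGN loop was found in the 5′ UTR of 47 of 20771 genes (0.226%) and in the 3′ UTR of 163 of 20919 genes (0.779%). Among the 1360 canonical 3′ UTRs within 10% of the length of that of *Tfrc*, 15 (1.1%) held such a hairpin and 2 (0.147%) one with the CAGAGT loop, and none but *Tfrc* held more than 1 with CAGTGN. Of the canonical 5′ UTRs of like length, 5 of 1556 (0.321%) held one for *Slc40a1*, 3 of 1835 (0.163%) for *Fth1* and 3 of 1828 (0.164%) for *Ftl1*.

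No such hairpin was found in the UTRs of *Aco1*, *Ireb2* or *Ncoa4*. *Slc11a2* matched only when 1 extra unpaired base was allowed in the 3′ arm of the upper stem, a pattern found in the 3′ UTR of 349 genes (1.67%). This match lies at chr15:100293033-100293061 on the minus strand, in 9 coding transcripts that do not include the canonical one. Its exon was numbered 16 in the transcript from which it was read. The match thus belongs to some forms of the mRNA, which counts per gene cannot tell apart.
Slc11a2 3′ UTR hairpin: gccatcagagcCAGTGTgtttctatggtt
A hairpin of the Regnase type was searched in canonical 3′ UTRs as 6 Watson-Crick pairs around a loop of TAT or TGT. It is shown for *Tfrc* with the loop in capitals, 21 bases at chr16:32450065-32450085 whose first base is the last base of hairpin 2.
Tfrc 3′ UTR hairpin with a 3-base loop: tatgacagtTATactgtcgtt
None of the other 7 genes had one, nor did *Egln1* or *Egln3*, and 915 of 20655 genes had at least 1 (4.43%), as did 79 of the 1360 genes with a 3′ UTR of like length (5.81%). A match in these letters describes the sequence, not a site that was bound or cleaved.

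**Figure D1:**
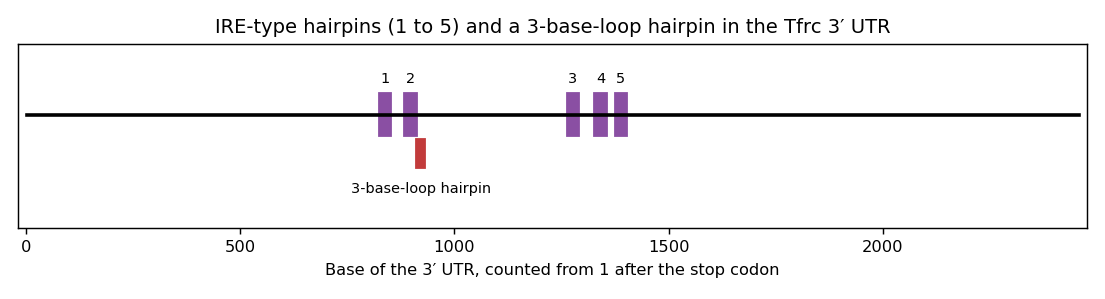
Map of the *Tfrc* 3′ UTR of the canonical transcript, with the base counted from 1 after the stop codon on the x axis. Purple boxes are the 5 IRE-type hairpins, which fall at bases 824 to 911 (hairpins 1 and 2) and 1262 to 1402 (hairpins 3 to 5) of 2458, and the red box is the hairpin with a 3-base loop at bases 911 to 931.

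The total count per library was 19610240 to 33986762, and the library of scrambled RNP replicate 4 was the shallowest. Counts are given as CPM, that is, counts scaled to 1 common TMM-normalized library size. The targeted gene *Zc3h12a* was at 34.8 ± 6.65 CPM in scrambled RNP libraries and 33.2 ± 5.91 CPM in *Zc3h12a* RNP libraries (mean ± SD, n = 4 each), so the mRNA level of the target did not separate the groups. The study's Western blots showed Regnase-1 protein depleted in BMMCs 1 wk after transfection with RNPs against *Zc3h12a*. For these libraries, the protein and the share of edited alleles were not analysed here. Mast cell markers were summed to 51574 to 61540 CPM in scrambled RNP and 49751 to 52753 CPM in *Zc3h12a* RNP libraries. Of 11 tested mast cell markers, 10 had a log2 fold change below 0 and 1 above, with a median of -0.10. Of all genes tested, 57.8% were above 0, with a median of 0.038. Of the 11, 2 (*Tpsb2* and *Hdc*, both lower) reached an unadjusted p of 0.05 or less in the edgeR fit, while none was called. Of all genes, 4.05% were lower at that p. Of marker lists of other cells, erythroid markers (9 of 11 listed, 4.72 to 8.46 CPM over all libraries, with *Hba-a2* at 0), macrophage markers (9 of 10 listed, 4.02 to 6.02 CPM), neutrophil markers (5 of 9 listed, 0.761 to 1.46 CPM) and B and T cell markers (6 of 6 listed, 1.07 to 5.66 CPM) were low. Basophil markers (4 of 4 listed, 445 to 542 CPM, mostly *Cd200r3*) and megakaryocyte markers (4 of 5 listed, 1787 to 2516 CPM) were higher. The ranges of the groups overlapped for each of these 7 lists.

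*Tfrc* (ENSMUSG00000022797, chr16:32427556-32451612, plus strand, 19 exons) was at 55.1, 70.5, 52.3 and 38.5 CPM in scrambled RNP replicates 1 to 4. In *Zc3h12a* RNP replicates 1 to 4 it was at 58.1, 62.7, 57.8 and 50.9 CPM. Scrambled RNP replicates held both the highest and the lowest value, so the groups overlapped fully, with means of 54.1 ± 13.1 and 57.4 ± 4.87 CPM (SD, n = 4 each). The log2 fold change of *Zc3h12a* RNP over scrambled RNP was 0.11, with a standard error of 0.10 and a 95% interval of -0.13 to 0.35 (adjusted p = 0.960, edgeR's quasi-likelihood test with Benjamini-Hochberg adjustment over all genes). On the linear scale this interval reaches from 0.914-fold to 1.28-fold, so a rise of *Tfrc* mRNA by more than 1.28-fold lay outside it. The differences of log2 CPM within the pairs were 0.077, -0.17, 0.14 and 0.40, higher in 3 of 4, and an exact two-sided sign-flip test over the pairs gave p = 0.5, where 4 pairs allow no p below 0.125. The pair with the largest difference was number 4, in which the scrambled RNP library was both the shallowest and the lowest in *Tfrc*, and without it the log2 fold change was 0.017. Without replicate 2, the only pair in which *Tfrc* was lower with the *Zc3h12a* RNP, it was 0.27, so the estimate and the bound of 1.28-fold depend on which cultures are included. In RNA from a whole culture, fewer cells that express a gene and less RNA per cell cannot be told apart, here and for every gene that follows.

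*Slc11a2* (ENSMUSG00000023030, chr15:100285776-100322953, minus strand, 17 exons in the canonical transcript) was lower, at 20.003, 18.7, 15.2 and 13.3 CPM in scrambled RNP replicates 1 to 4 and 17.7, 17.2, 19.0 and 20.4 CPM in *Zc3h12a* RNP replicates 1 to 4. Its pairs were split, with *Zc3h12a* RNP lower in pairs 1 and 2 and higher in pairs 3 and 4, by -0.17, -0.12, 0.32 and 0.61 on the log2 scale. In the fit its log2 fold change was 0.15 with a standard error of 0.14 and an interval of -0.18 to 0.49 (edgeR adjusted p = 0.960). DMT1 and transferrin receptor 1 act on the same endosomal route, and the level of neither mRNA separated the groups.

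*Slc40a1* (ENSMUSG00000025993, chr1:45947211-45965683, minus strand), the gene of ferroportin, was at the limit of detection. It had 3, 2, 7 and 3 counts in scrambled RNP replicates 1 to 4 and 6, 3, 0 and 4 counts in *Zc3h12a* RNP replicates 1 to 4, which is 15 against 13 counts in all. The 0 counts of *Zc3h12a* RNP replicate 3 allow up to 3 counts, or 0.123 CPM, for counting error alone. No fold change is given for it, and a difference between the groups was not detectable at this depth. The mRNA of the known exporter of free iron was thus close to 0 in every library, while those of uptake and storage had at least 280 counts in each.

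The ferritin genes were the most abundant of the 8. *Fth1* (ENSMUSG00000024661, chr19:9957911-9962462, plus strand, 4 exons) was at 1796, 2229, 2028 and 2042 CPM in scrambled RNP replicates 1 to 4. It was at 1943, 2019.6, 2375 and 1631 CPM in *Zc3h12a* RNP replicates 1 to 4, which hold both the highest and the lowest value. With means of 2024 ± 178 and 1992 ± 305 CPM, the fitted log2 difference was -0.031, its standard error 0.10 and an interval of -0.27 to 0.21 (edgeR adjusted p = 0.974). The pairs went up and down in equal number, by 0.11, -0.14, 0.23 and -0.32.

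*Ftl1* (ENSMUSG00000050708, chr7:45107367-45109308, minus strand, 4 exons) had the largest estimate of the 7. It was at 2846, 3411, 2857 and 1958 CPM in scrambled RNP replicates 1 to 4 and 2887, 3297, 4700.5 and 2682 CPM in *Zc3h12a* RNP replicates 1 to 4. The highest library was *Zc3h12a* RNP replicate 3 and the lowest scrambled RNP replicate 4, and the other 6 libraries of both groups lay between 2682 and 3411 CPM. The log2 fold change was 0.29 with a standard error of 0.13, and its interval of -0.026 to 0.60 included 0 (edgeR adjusted p = 0.846). The differences of pairs 1 and 2 were 0.021 and -0.049, and those of pairs 3 and 4 were 0.72 and 0.45, so the estimate comes from the pairs that hold those libraries. Leaving out each pair in turn gave 0.088 (without replicate 3) to 0.46 (without replicate 2). *Ftl1* has near-identical copies in the genome, and how reads with several matches were counted was not stated. The listed pseudogene *Ftl1-ps1* had 0.425% to 0.777% as many counts as *Ftl1* in the 8 libraries.

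**Figure D2:**
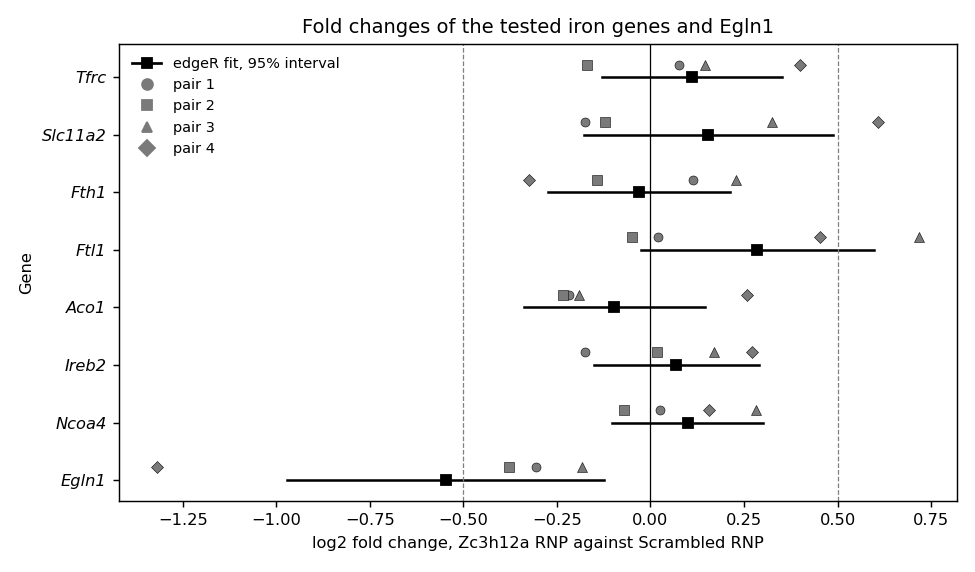
log2 fold change of *Zc3h12a* RNP over scrambled RNP (x axis) for the 7 tested iron genes and *Egln1* (y axis). Black squares are the edgeR estimates with their 95% intervals, grey symbols the difference of log2 CPM in each pair, and dashed lines mark 0.5 in either direction. The intervals of all 7 iron genes include 0, and pair 4 of *Egln1* lies at -1.32.

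Ratios of counts within a library do not depend on the scaling between libraries, and were computed for the ferritin chains, for storage against uptake, and for the regulators. The *Ftl1* counts per *Fth1* count were 1.58, 1.53, 1.41 and 0.959 in scrambled RNP replicates 1 to 4, and 1.49, 1.63, 1.98 and 1.64 in *Zc3h12a* RNP replicates 1 to 4. Scrambled RNP replicate 4 was the only library with more *Fth1* than *Ftl1* counts. The log2 ratio of *Fth1* to *Ftl1* differed between the groups by -0.32 on average with an SD of 0.39 over the 4 pairs, so the spread between pairs was larger than the mean difference. The *Fth1* and *Ftl1* counts per *Tfrc* count were 84.2, 79.996, 93.4 and 104 in scrambled RNP and 83.1, 84.8, 122 and 84.8 in *Zc3h12a* RNP replicates 1 to 4. The balance of storage and uptake mRNAs lay between 79.996 and 93.4 in 6 of the libraries, and the log2 ratio of *Tfrc* to ferritin counts differed between the groups by -0.041 with an SD of 0.28 over the pairs. Together the ferritin genes took 0.429% to 0.726% of all counts of a library.

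**Figure D3:**
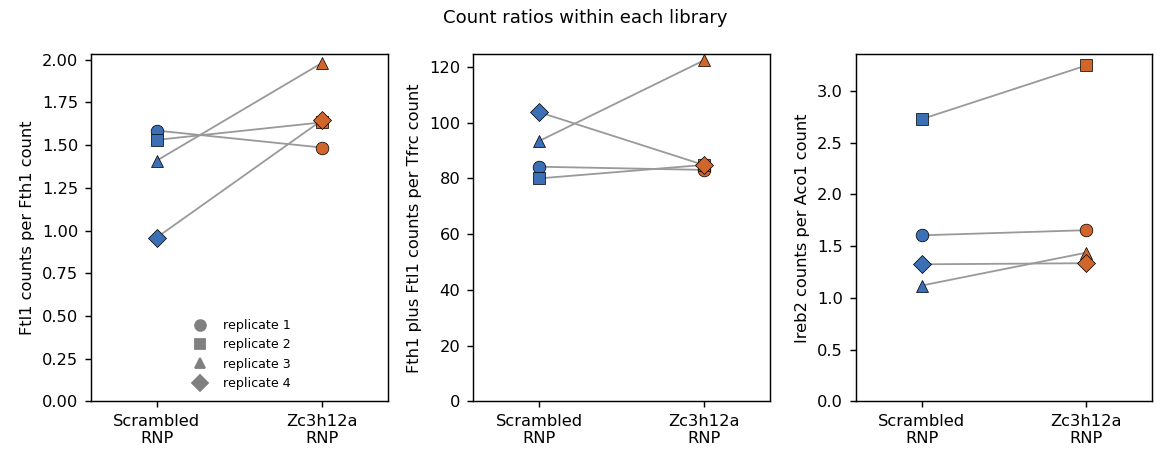
Ratios of counts within each of the 8 libraries (y axes, starting at 0) for the scrambled and *Zc3h12a* RNP groups (x axis), with lines joining libraries of a replicate number. The *Ftl1* to *Fth1* ratio rises by 0.571 and 0.685 in pairs 3 and 4 and moves little in pairs 1 and 2, and the *Ireb2* to *Aco1* ratio is highest in both libraries of replicate 2.

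*Aco1* (ENSMUSG00000028405, chr4:40142998-40199010, plus strand, 21 exons) was at 48.0, 40.0, 39.3 and 37.9 CPM in scrambled RNP and 41.3, 34.02, 34.4 and 45.4 CPM in *Zc3h12a* RNP replicates 1 to 4. Its product IRP1 also serves as the cytosolic aconitase when it holds an iron-sulfur cluster. It was lower with the *Zc3h12a* RNP in 3 pairs by -0.22, -0.23 and -0.19, and higher in the fourth by 0.26. Its fitted log2 fold change was -0.096, with a standard error of 0.10 and an interval of -0.34 to 0.15 (edgeR adjusted p = 0.960).

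*Ireb2* (ENSMUSG00000032293, chr9:54770970-54820011, plus strand, 22 exons) encodes IRP2, which is degraded when iron is plentiful. It was at 77.0, 109, 43.9 and 50.3 CPM in scrambled RNP and 68.3, 110.5, 49.4 and 60.6 CPM in *Zc3h12a* RNP replicates 1 to 4, so the replicate numbers differed by more than the groups, with replicate 2 high in both. Its log2 fold change was 0.069 with a standard error of 0.094 and an interval of -0.15 to 0.29 (edgeR adjusted p = 0.960). The *Ireb2* counts per *Aco1* count were 1.61, 2.73, 1.12 and 1.32 in scrambled RNP and 1.65, 3.25, 1.44 and 1.34 in *Zc3h12a* RNP replicates 1 to 4. This ratio was higher with the *Zc3h12a* RNP in each pair, by 0.044, 0.25, 0.36 and 0.011 on the log2 scale, a mean of 0.17 with an SD of 0.17. It was added after the data had been seen and was not tested.

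*Ncoa4* (ENSMUSG00000056234, chr14:31881822-31902234, plus strand, 10 exons) showed a like pattern over the replicate numbers in another order. It was at 128, 126, 163 and 211 CPM in scrambled RNP and 130.03, 119.9, 198 and 235 CPM in *Zc3h12a* RNP replicates 1 to 4, so replicates 3 and 4 were above replicates 1 and 2 in both groups. Its fitted log2 fold change was 0.099 with a standard error of 0.087 and an interval of -0.10 to 0.30 (edgeR adjusted p = 0.960).

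Over the 7 tested genes, 0 were called at an adjusted p at or under 0.05 and a log2 fold change beyond 0.5 by edgeR, where 0% of all 14934 genes were called, and 0 of 7 reached an unadjusted p of 0.05 or less, which 6.17% of all genes did (2.12% higher and 4.05% lower with the *Zc3h12a* RNP). DESeq2 called 0 of the 7 and 0.582% of all genes it gave an adjusted p, limma-trend with the replicate number in the model called 0 of the 7 and 0.0067%, and limma-trend after removeBatchEffect 0 of the 7 and 0.757%. With shares so close to 0, a count of 0 among 7 genes is not a result about the iron genes. For none of the 7 did the groups separate, as they did for 0.924% of all genes. None was higher in all 4 pairs, as 4.98% of all genes were, or lower in all 4, as 8.54% were. The log2 fold change was above 0 for 5 of 7, against 57.8% of all genes, and its median was 0.099 against 0.038 for all genes. The 95% interval lay within 1.5-fold in either direction for 6 of the 7 genes, all but *Ftl1*, while it did so for 55.7% of all genes. Translation, on which the 5′ UTR hairpins act, is not measured by these counts.

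The pairs did not move alike. *Zc3h12a* RNP was higher for 4, 1, 6 and 6 of the 7 genes in pairs 1 to 4, with medians of 0.021, -0.12, 0.23 and 0.27 on the log2 scale beside 0.027, 0.0089, 0.0076 and -0.059 for all genes. A test between replicate numbers in the same edgeR fit gave adjusted p = 0.00340 for *Ireb2* and 0.00615 for *Ncoa4*, and over 0.05 for the other 5. That is 2 of 7 genes, close to the 28% of all genes that passed it, which is not a result about the iron genes.

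To set the genes beside each other, CPM were divided by the length of the canonical transcript in kb. *Ftl1* had a mean of 3178 and *Fth1* of 2161 CPM per kb over the 8 libraries, ranks 6 and 9 of 14327 genes. *Ncoa4* followed at 36.5, *Ireb2* at 12.1, *Tfrc* at 11.4, *Aco1* at 8.73, *Slc11a2* at 5.84 and *Slc40a1* at 0.0378 CPM per kb. *Ftl1* was above *Fth1* in 7 of 8 libraries. *Fth1* was 33.5 to 85.5 times as high as *Ncoa4* in all 8, *Ncoa4* was above *Ireb2* in all 8, and *Aco1* was above *Slc11a2* in all 8. The order of *Ireb2*, *Tfrc* and *Aco1* was not fixed: *Ireb2* exceeded *Tfrc* in 4 of 8 libraries, *Tfrc* exceeded *Aco1* in 7 of 8, and their ranges overlapped. Ferritin mRNA is thus among the most abundant mRNAs per length in these cells, and that of the transferrin receptor is of middle rank (4624 of 14327).

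**Figure D4:**
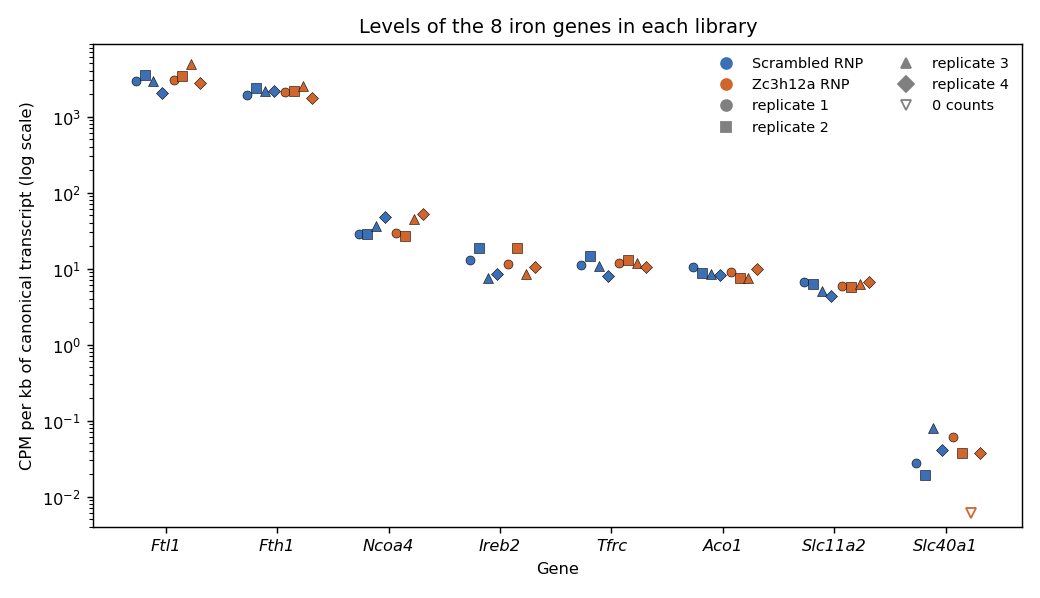
Level of each of the 8 genes (x axis) in each library, as CPM per kb of the canonical transcript on a log scale (y axis), with colour for the RNP and shape for the replicate number. Ferritin genes lie above 1756 CPM per kb in every library, the 5 genes from *Ncoa4* to *Slc11a2* between 4.405 and 52.4, and *Slc40a1* at or below 0.0796, with 1 library at 0 counts (open symbol).

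The other known Regnase-1 targets of iron metabolism are *Egln1* and *Egln3*, the genes of prolyl hydroxylases that use iron and oxygen to mark HIF for degradation. *Egln1* was at 44.8, 61.5, 42.8 and 101 CPM in scrambled RNP and 36.2, 47.3, 37.7 and 40.5 CPM in *Zc3h12a* RNP replicates 1 to 4. It was thus lower with the *Zc3h12a* RNP in all 4 pairs, as 8.54% of all genes were. The log2 fold change was -0.55 with a standard error of 0.18, and it was -0.29 without replicate 4. *Egln1* reached an unadjusted p of 0.018 in edgeR, and 4.05% of all genes were lower at 0.05 or less. It did not pass the adjustment (edgeR adjusted p = 0.686). *Egln3* had too few counts to be tested, with 26, 13, 7 and 275 counts in scrambled RNP and 2, 3, 7 and 6 counts in *Zc3h12a* RNP replicates 1 to 4. Most of its counts were thus in scrambled RNP replicate 4, the library in which *Egln1* was highest and *Tfrc* and *Ftl1* were lowest. Among the 7 tested known targets in inflammation, which include *Zc3h12a* itself, 4 had a log2 fold change above 0 and 3 below. Of the 7, 2 reached an unadjusted p of 0.05 or less, both higher with the *Zc3h12a* RNP (2.12% of all genes were). They are the genes of the NF-kappa-B regulators *Nfkbiz*, with a log2 fold change of 0.27 (edgeR adjusted p = 0.660), and *Nfkbid*, with 0.48 (edgeR adjusted p = 0.772). *Nfkbid* was lower with the *Zc3h12a* RNP in pair 3, by -0.24, and ranged from 18.7 to 539 CPM among the scrambled RNP libraries. In the search for hairpins of the Regnase type, *Nfkbiz* and *Nfkbid* held 2 each, and the known targets *Il6* and *Ptgs2* held 0. Hairpin counts of the other targets in inflammation are not reported here. Whether a hairpin goes with a change in level was not tested.

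The rest of the pathway was taken from 6 lists of 79 genes, of which 76 were listed and 70 tested. None was called by edgeR, and 2 of 70 (2.86%) reached an unadjusted p of 0.05 or less, against 6.17% of all genes. This count ran from 0 to 10 over other settings, so it is not a result about the pathway. The log2 fold change was above 0 for 48 and below 0 for 22, with a median of 0.057. Of all genes, 57.8% were above 0, with a median of 0.038. Both of the 2 genes at an unadjusted p of 0.05 or less were higher with the *Zc3h12a* RNP. *Steap3*, the reductase that turns endosomal iron into the form DMT1 carries, was at 4.95, 3.93, 5.28 and 2.57 CPM in scrambled RNP and 10.3, 4.51, 6.70 and 6.07 CPM in *Zc3h12a* RNP replicates 1 to 4, higher in all 4 pairs, by 0.71 ± 0.25 on the log2 scale in the edgeR fit (estimate ± standard error, adjusted p = 0.693). *Hmox1*, heme oxygenase 1, which frees iron from heme, was at 13.5, 17.1, 27.2 and 16.4 CPM against 17.9, 16.6, 46.7 and 20.1 CPM, higher in 3 of 4 pairs, by 0.37 ± 0.13 on the log2 scale in the edgeR fit (adjusted p = 0.700). Its highest value was in *Zc3h12a* RNP replicate 3, the library with the highest *Ftl1*.

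By role, the median log2 fold change was 0.10 for uptake and endosome, with 9 of 12 tested genes above 0. After *Steap3*, the lowest p in it was that of the metal transporter *Slc39a8*, lower in every pair, at -0.19 on the log2 scale (edgeR adjusted p = 0.844), and *Trf*, the gene of transferrin itself, was at 55.3 ± 12.2 and 55.6 ± 9.02 CPM. Genes of iron sensing and ferritin handling had a median of 0.042 (4 of 7 above 0), and *Pcbp1*, whose product delivers iron to ferritin, was at 322 ± 82.2 and 339 ± 24.1 CPM. The other mRNAs with a known IRE had a median of 0.071 (2 of 3 above 0). Mitochondrial iron and iron-sulfur cluster genes had a median of 0.033 (17 of 27 above 0), and the lowest p was that of the mitochondrial iron importer *Slc25a37* with 0.15 (edgeR adjusted p = 0.941). Genes of heme synthesis, transport and breakdown had a median of 0.072 (12 of 17 above 0), and *Alad*, an enzyme of heme synthesis, followed *Hmox1* with 0.31 (edgeR adjusted p = 0.828). The 4 tested genes of export and hepcidin control had a median of 0.75 but were low and uneven, with medians of 0.99, 3.46, -0.089 and -1.12 in pairs 1 to 4. The ferroxidase gene *Heph*, for example, was at 1.08, 0.09996, 4.10 and 3.66 CPM in scrambled RNP and 1.84, 2.08, 2.76 and 1.82 CPM in *Zc3h12a* RNP replicates 1 to 4.

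**Figure D5:**
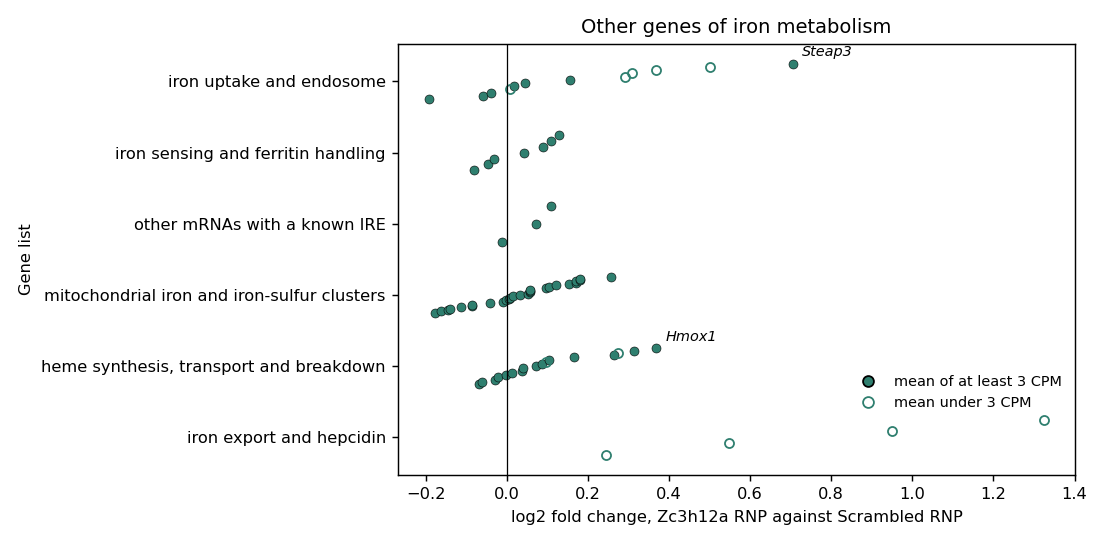
log2 fold change of *Zc3h12a* RNP over scrambled RNP (x axis) for the 70 other tested genes of iron metabolism, in 6 lists (y axis). Each circle is a gene, open where its mean was under 3 CPM, and names mark the 2 genes with an unadjusted p of 0.05 or less, *Steap3* at 0.71 and *Hmox1* at 0.37.

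The genes whose log2 CPM was most like that of *Tfrc* over the 8 libraries, among 8318 genes with a mean of at least 10 CPM, were *Pigk*, *Dbf4*, *Ska3*, *Ipo5* and *Syt9*, with Pearson's r of 0.982 to 0.986. For *Fth1* they were *Polb*, *Rps28*, *Rpl23a*, *Vkorc1* and *Cox20*, with r of 0.879 to 0.935. Among the iron genes, *Tfrc* had r = 0.74 with *Ftl1*, 0.70 with *Ireb2*, 0.62 with *Slc11a2*, 0.30 with *Fth1*, -0.11 with *Aco1* and -0.68 with *Ncoa4*. *Fth1* had r = 0.55 with *Ftl1*, -0.0047 with *Ireb2*, -0.16 with *Ncoa4*, -0.27 with *Slc11a2* and -0.76 with *Aco1*. These are descriptions over 8 libraries, which are not independent where a pair shares its source, and whose depth differs.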

How the data were processed

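RNA from 8 BMMC samples, 4 per RNP, was enriched for poly(A), and the authors deposited raw counts per gene symbol for each sample. Per the labels, FastQC 0.11.9, HISAT2 2.2.1, featureCounts 2.0.1 and GRCm39 were used. The strand setting and the handling of reads with several matches were not given in the sources used here, so counts of overlapping genes and near-identical copies are uncertain.

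The counts of all 8 samples entered 1 fit in edgeR 4.0.16 (R 4.3.3): filterByExpr by group, TMM normalization, and a quasi-likelihood test with the replicate number and the RNP in the model. A call needed a Benjamini-Hochberg adjusted p of 0.05 or less and a log2 fold change beyond 0.5. The standard error is the size of the log2 fold change over the square root of F. CPM are TMM-normalized, and log2 CPM used a prior count of 2. The total count per sample was 19610240 to 33986762, and floors cover counting error only. DESeq2 1.42.0, limma-trend in limma 3.58.1 (with the replicate number in the model, or after removeBatchEffect as in the study's methods), other normalizations, other filters, no block and leaving out each replicate number were alternatives.

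The series' design names 4 mice and both RNPs, and no label ties a replicate number to a mouse, so the pairing of same-numbered samples rests on the numbers and on this check. Deviations from the group means of same-numbered samples had correlations of 0.717 to 0.756 over 9668 genes with a mean log2 CPM above 2, and at most 0.137 for other samples. Over all genes tested these were 0.595, 0.075, 0.624 and 0.041 in pairs 1 to 4, and up to 0.398 for other samples. All samples of a group differed by more than sampling noise.

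The text names the 8 iron genes, genes of the iron lists with an unadjusted p at or under 0.05 or among the 3 with the lowest p in a list or told with a member's role, known Regnase-1 targets, and the 5 genes most like *Tfrc* and *Fth1*. The values of 1 gene of the lists are not reported here. Members and lists were chosen with earlier results of these data known. The hairpin searches, the test between replicate numbers and the ratio of *Ireb2* to *Aco1* were added after the data were seen. Positions and sequences come from GRCm39 with GENCODE M39. Transcript lengths were found for 22491 symbols. Python 3.11.15, pandas 2.3.3 and matplotlib 3.10.9 were used for sequences and figures.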

Additional observations from a re-analysis of the deposited data

Results flagged for a closer look

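Of 24 groups of 4 libraries examined, a gap of 1 library to the rest above Dixon's 95% critical value was found in 2, where chance would give 1.2. The ferritin counts per *Tfrc* count in *Zc3h12a* RNP replicate 3 were 122, while the other 3 libraries of the group lay at 83.1 to 84.8, a gap of 0.954 of the range. The *Ireb2* counts per *Aco1* count in *Zc3h12a* RNP replicate 2 were 3.25, while the others lay at 1.34 to 1.65, a gap of 0.833 of the range.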

How the results depend on the processing

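Over 13 alternative settings, 84 of 91 values of the 7 tested iron genes kept their direction, 7 reversed, and none passed the threshold (lowest adjusted p 0.245, for *Ftl1* in limma-trend after removeBatchEffect). *Fth1* was at 0.037 with total counts in place of TMM (median of all genes 0.11) and 0.0024 with no filter on low counts. Leaving out each replicate number in turn gave -0.17 to 0.068 for *Fth1* (0.068 without replicate 2, 0.067 without replicate 4), -0.21 to 0.010 for *Aco1*, -0.017 to 0.20 for *Ireb2*, -0.015 to 0.22 for *Ncoa4*, 0.017 to 0.27 for *Tfrc*, 0.0064 to 0.31 for *Slc11a2* and 0.088 to 0.46 for *Ftl1*. Genes called higher over the whole table, 0 in the main setting, numbered 8 with DESeq2, 34 after removeBatchEffect, 9 with no filter, and 0 to 80 leaving out a replicate number (80 without replicate 2). Genes called lower, also 0, numbered 52, 79 and 31 in those settings, 1 with limma-trend with the block, 1 with RLE factors, 3 with at least 10 counts in every sample, and 0 to 57 leaving out a replicate number (57 without replicate 2). Genes at an unadjusted p at or under 0.05, 922, numbered 2845 after removeBatchEffect, 605 with RLE factors, 605 with no filter, and 246 to 950 leaving out a replicate number. Without the replicate block, that is, without the pairing, they numbered 104, and of the iron pathway 0 in place of 2, while *Tfrc* was at 0.084 and no call among the iron genes changed. The iron pathway count was 1 with DESeq2, 10 after removeBatchEffect, 8 with total counts, and 1 to 7 leaving out a replicate number (7 without replicate 2). The median of the uptake list was 0.17 with total counts, 0.19 with no filter, 0.030 with at least 10 counts in every sample and 0.024 to 0.16 leaving out a replicate number, and that of the sensing list -0.11 to 0.10. No gene of the export list had at least 10 counts in every sample, so that setting gave no value for it. Adding the *Ftl1-ps1* counts left the log2 ratio of *Fth1* to *Ftl1* at -0.32. After removeBatchEffect the model held the RNP alone, so its p-values leave out the fitting of the replicate numbers and are too small. With limma-trend, *Tfrc* was at 0.11 both with the block (unadjusted p = 0.29) and after removeBatchEffect (unadjusted p = 0.17). The cause of the other shifts was not tested. Counts of *Tfrc* were 810 to 2116 in a library, and those of *Slc40a1* 0 to 7, too few for a fold change.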
